A study of Mus musculus with 4 samples.

Results

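The mitochondrial carriers of the SLC25 family were examined in brown adipose tissue, a heat-producing fat depot rich in mitochondria, as the 46 of 22180 measured genes whose symbol begins with Slc25a. Members were taken from probe sets to which the platform annotation gives 1 gene symbol. Each of the 46 had 1 such probe set, and 1 further probe set shared by Slc25a35 and Rangrf was not used. The samples were 2 from Tsku knockout mice and 2 from wild-type mice, each hybridised to 1 whole-transcript array. All were from male C57BL/6 mice aged 4 months on a chow diet. Tsku encodes tsukushi, a secreted small leucine-rich proteoglycan, and the labels do not give the allele. They describe the samples of a genotype as biological replicates, without saying that each is 1 mouse, so it is not known how much animal-to-animal spread the p-values hold.

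SLC25 proteins sit in the inner membrane of mitochondria, with a few in other membranes, and move metabolites, nucleotides and cofactors that cannot cross it unaided. Most share a fold of 3 similar repeats and work by exchange, taking 1 substrate in as another goes out. Brown fat depends on them for the ADP, phosphate, acylcarnitines and amino acids that its mitochondria use, and its uncoupling protein UCP1 belongs to the same family under another symbol.

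Of the 46 genes, 33 were above background on all 4 arrays, against 9927 of all 22180 genes (71.7% and 44.8%). Background was set per array at the 95th percentile of the odorant and pheromone receptor genes, 1405 probe sets in all, and lay between 0.63 and 0.81 on the log2 scale. Slc25a10, Slc25a13, Slc25a14, Slc25a18 and Slc25a29 were above it on some arrays. Slc25a2, Slc25a21, Slc25a31, Slc25a34, Slc25a41, Slc25a43, Slc25a53 and Slc25a54 were above it on none. Among these, Slc25a31 encodes the ADP/ATP carrier known from testis. Brown adipocyte markers were present, with 9 of 10 above background on all 4 arrays, Ucp1 and Cidea among them. Array medians ran from 0.56 to 0.58, and the small number of arrays limits the precision of every value.

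No SLC25 gene passed the threshold between Tsku knockout and wild type, a limma p adjusted by Benjamini-Hochberg over all genes of under 0.05. The share of all genes called was 0.0%, and the smallest adjusted p among the members was 0.872. At an unadjusted p under 0.05 stood 1 of 46 members (2.17%), Slc25a12, against 5.56% of all genes. The knockout mean was the higher one in 28 of 46 members (60.9%), against 52.6% of all genes, and the median log2 difference, knockout minus wild type, was 0.08 for the members and 0.02 for all genes. Without wild-type replicate 2 the balance was even, at 23 of 46 members, and the median was -0.0044. Knockout and wild-type arrays did not overlap with the knockout higher in 15 members (32.6%), against 19.4% of all genes, and with the knockout lower in 8 (17.4%), against 15.8%. Among genes above background on all 4 arrays the shares were 33.3% of 33 members and 18.9% of 9927 genes for higher, and 9.09% and 17.6% for lower. These counts are a description of 4 arrays, and nothing is called particular to the family from them. Brown adipocyte markers leaned the same way: all 10 had the higher mean in the knockout, with a median log2 difference of 0.41, 6 did not overlap between genotypes and 4 stood at an unadjusted p under 0.05, Dio2, the deiodinase that activates thyroid hormone, by 2.03. Of 10 general adipocyte markers 8 were higher, with a median of 0.12. Their part in the carriers' values was not tested.

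**Figure D1:**
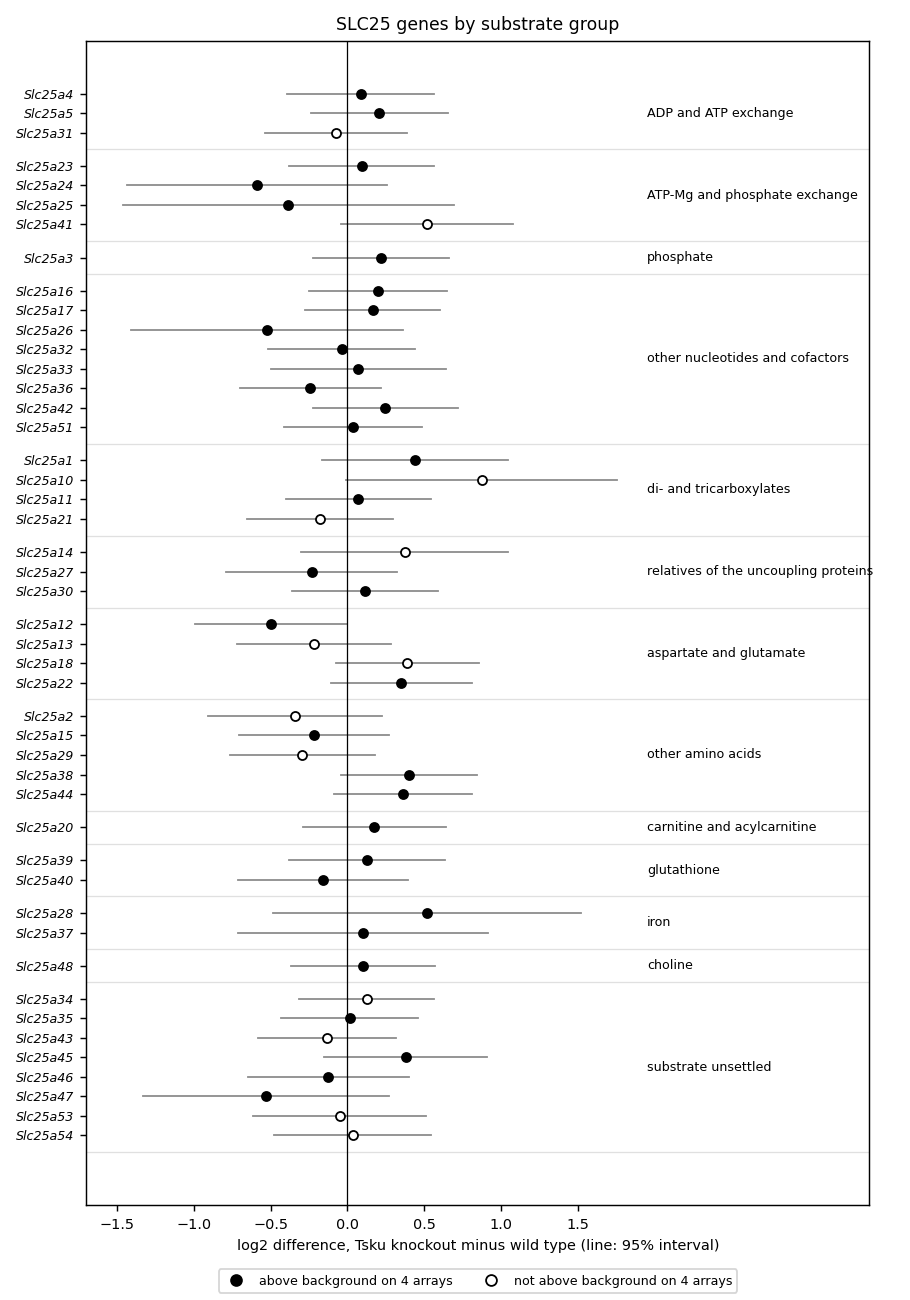
Log2 difference between Tsku knockout and wild type (x axis) for each of the 46 SLC25 genes, grouped by transported substrate, with 95% intervals from limma. Differences run from -0.59 for Slc25a24 to 0.87 for Slc25a10, and the interval of Slc25a12 alone leaves out 0.

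The differences were small beside what the arrays can resolve. In 40 of 46 members the absolute log2 difference was under 0.5, and 95% intervals typically reached 0.48 to either side (median over members). For 27 of the 33 members above background on all arrays the whole interval lay within a log2 difference of 1 in either direction, so larger differences are outside their intervals. The intervals of the other 6, Slc25a1, Slc25a24, Slc25a25, Slc25a26, Slc25a28 and Slc25a47, reached past it. In 31 of 46 members (67.4%) the gap between the 2 arrays of 1 genotype was larger than the difference between genotypes, against 77.4% of all genes.

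**Figure D2:**
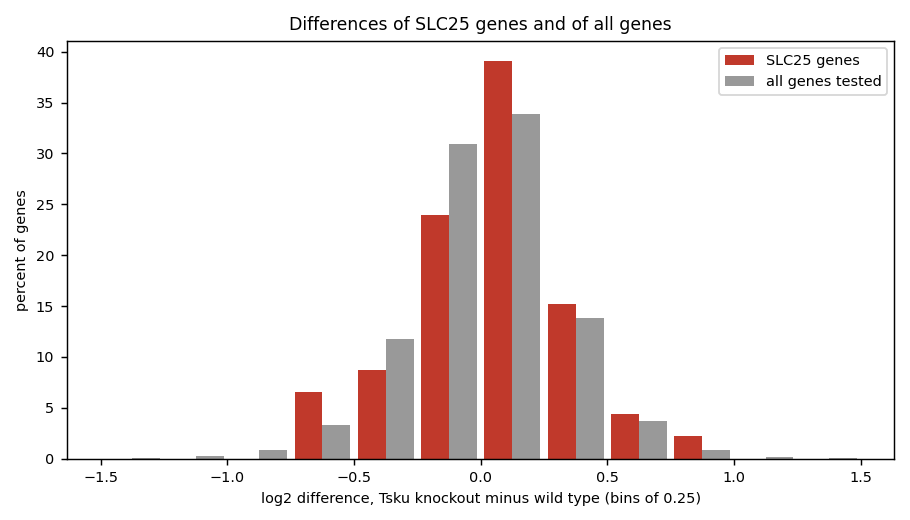
Percent of genes (y axis) in bins of the log2 difference between Tsku knockout and wild type (x axis, shown from -1.5 to 1.5), for the 46 SLC25 genes and for all 22180 genes. The median is 0.08 for SLC25 genes and 0.02 for all genes, and both distributions centre near 0.

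Slc25a12 had knockout arrays below both wild-type arrays. Slc25a3, Slc25a20 and Slc25a38 had knockout arrays above both, and Slc25a25 had 1 low knockout array. The promoters of these 5 members are shown as examples. They come from RefSeq on GRCm38.p6, which listed a start for 36 of the 46 members, and span 250 bases before to 50 after it, 5′ to 3′ on the gene's strand. Capitals mark 3 motifs searched on both strands: CCGGAAG, the core bound by GABP, TGACG, the short site of CREB, and AAGGTCA, the core of the oestrogen-related receptor site. For Slc25a25 the start shown, out of 3 listed, holds 2 overlapping TGACG matches that make a palindrome, and the window of Slc25a12 holds none of the 3 motifs.
Slc25a12, chr2:71367706-71368005, minus strand: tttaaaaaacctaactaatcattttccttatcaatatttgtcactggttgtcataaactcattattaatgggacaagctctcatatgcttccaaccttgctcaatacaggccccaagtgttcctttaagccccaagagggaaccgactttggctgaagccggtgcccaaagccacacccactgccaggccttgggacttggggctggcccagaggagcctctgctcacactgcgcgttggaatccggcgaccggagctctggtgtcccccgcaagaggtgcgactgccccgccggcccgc
Slc25a3, chr10:91123918-91124217, minus strand: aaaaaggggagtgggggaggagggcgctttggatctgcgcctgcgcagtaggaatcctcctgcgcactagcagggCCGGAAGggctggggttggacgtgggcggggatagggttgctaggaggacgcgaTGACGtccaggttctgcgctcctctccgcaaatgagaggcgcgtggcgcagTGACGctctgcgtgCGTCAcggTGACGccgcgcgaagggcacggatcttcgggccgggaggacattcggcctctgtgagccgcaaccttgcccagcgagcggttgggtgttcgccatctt
Slc25a20, chr9:108661886-108662185, plus strand: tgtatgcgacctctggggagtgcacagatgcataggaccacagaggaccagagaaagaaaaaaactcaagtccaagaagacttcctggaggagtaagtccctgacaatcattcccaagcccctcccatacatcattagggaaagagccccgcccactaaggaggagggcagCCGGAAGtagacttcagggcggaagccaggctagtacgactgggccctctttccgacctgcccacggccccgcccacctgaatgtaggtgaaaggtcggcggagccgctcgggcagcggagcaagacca
Slc25a38, chr9:120110132-120110431, plus strand: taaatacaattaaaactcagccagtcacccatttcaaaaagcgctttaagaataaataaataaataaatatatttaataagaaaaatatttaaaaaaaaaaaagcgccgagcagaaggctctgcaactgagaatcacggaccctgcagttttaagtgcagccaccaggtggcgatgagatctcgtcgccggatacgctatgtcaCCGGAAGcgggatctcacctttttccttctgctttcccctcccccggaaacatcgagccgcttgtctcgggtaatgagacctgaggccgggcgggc
Slc25a25, chr2:32424017-32424316, minus strand: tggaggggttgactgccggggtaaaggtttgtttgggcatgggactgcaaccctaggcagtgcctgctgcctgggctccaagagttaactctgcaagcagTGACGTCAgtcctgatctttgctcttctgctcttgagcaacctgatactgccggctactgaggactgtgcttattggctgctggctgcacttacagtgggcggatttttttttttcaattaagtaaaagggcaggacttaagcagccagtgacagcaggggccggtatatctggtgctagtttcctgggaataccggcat
CCGGAAG was in the promoters of 7 of 36 members (19.4%), against 9.93% of all 27025 genes with a listed start. TGACG was in 12 of 36 (33.3%), against 23.0%, and AAGGTCA in 1 of 36 (2.78%), that of Slc25a34, against 5.38%. Member promoters had a median GC content of 59.3%, against 52.7% over all promoters, so G- and C-rich letters are more frequent in them. Of the other members with a listed start and knockout arrays above both wild-type arrays, only Slc25a17 held CCGGAAG. Slc25a1, Slc25a5, Slc25a10, Slc25a16, Slc25a18, Slc25a22, Slc25a34, Slc25a42 and Slc25a45 did not. Slc25a4, Slc25a25 and Slc25a54 held it with overlapping genotypes. A match is a description of these letters and says nothing about binding.

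Of the carriers that serve ATP synthesis, Slc25a4, Slc25a5 and Slc25a3 had log2 differences of 0.09 to 0.22. Slc25a4 encodes the ADP/ATP carrier prominent in heart and muscle, which brings ADP in and sends ATP out. It read 7.27 and 7.11 on the Tsku knockout arrays, against 7.22 and 6.99 in wild type, a log2 difference of 0.09 (95% interval -0.39 to 0.56). The 2 genotypes overlapped. Slc25a5, its more widely used partner, read 7.87 and 7.99 in the knockout and 7.72 and 7.73 in wild type, a difference of 0.21 (-0.24 to 0.65). Slc25a3, the phosphate carrier that feeds ATP synthase, read 5.67 and 5.70 in the knockout and 5.41 and 5.52 in wild type, a difference of 0.22 (-0.23 to 0.66). For Slc25a5 and Slc25a3 both knockout arrays were above both wild-type arrays, and both intervals reach to either side of no difference. Of 15 ATP synthase genes, 13 were higher in knockout, against 52.6% of all genes, with a median of 0.10. Atp5o and Atp5g1 were the 2 at an unadjusted p under 0.05, against 5.56% of all genes. Atp5o, a stalk subunit, differed by 0.85. Atp5g1, a gene of the membrane ring, was above background on 1 wild-type array and on no knockout array. No fold is given for Atp5g1, as wild-type replicate 2 was also below its background. Its relatives Atp5g2 and Atp5g3 were above background on all 4 arrays and differed by 0.10 and 0.46. Skeletal muscle markers were lower in the knockout in all 18 genes of their list, with a median of -1.74. The part of muscle RNA in the Slc25a4 values was not tested.

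The calcium-regulated carriers that exchange ATP-Mg for phosphate adjust the adenine nucleotide pool of the matrix. Slc25a23 read 8.09 and 8.03 in the knockout and 8.09 and 7.84 in wild type, with overlapping groups and a difference of 0.09. Slc25a24 read 1.18 and 2.18 on knockout arrays, against 2.37 and 2.17 in wild type. Its log2 difference of -0.59 (-1.44 to 0.26) came from knockout replicate 1, and was -0.089 without that array and -1.09 without replicate 2. Slc25a25, known as a gene that cAMP signals induce, read 0.85 and 2.18 in the knockout and 2.09 and 1.70 in wild type. Its difference of -0.38 (-1.46 to 0.69) turned to 0.28 without knockout replicate 1, where its value lay close to that array's background of 0.81. Slc25a26, which carries S-adenosylmethionine for methylation inside mitochondria, showed the same pattern, with 2.58 and 3.60 on knockout arrays and 3.43 and 3.81 in wild type. Its difference of -0.53 was -0.018 without knockout replicate 1.

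Slc25a24, Slc25a25 and Slc25a26 were the 3 members whose knockout arrays lay more than 1 log2 unit apart, a share of 6.52% against 3.05% of all genes. In each of them knockout replicate 1 was the low array. The direction was not shared by all 7 members with a knockout gap of at least 0.5. Replicate 1 was the high array in Slc25a10 and Slc25a1, with gaps of 0.91 and 0.58, and the low one in Slc25a37 and Slc25a2. Macrophage markers were low on knockout replicate 1, and all 10 were above background on the 4 arrays. Their summed linear signal stood at 147 for replicate 1 and 273 for replicate 2 of the knockout, against 262 and 270 in wild type. Whether the macrophage signal and the values of the 3 members are linked was not tested. In tissue RNA, fewer cells of a type and less RNA per cell cannot be told apart.

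**Figure D3:**
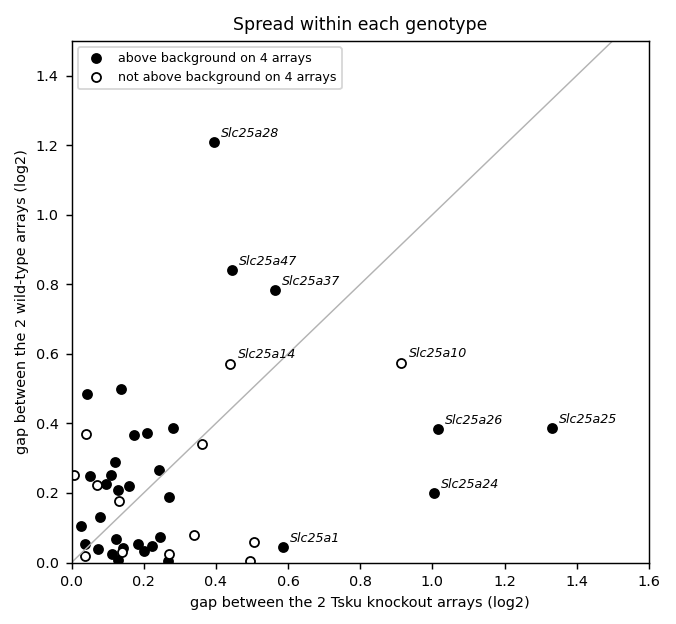
Gap between the 2 wild-type arrays (y axis) against the gap between the 2 Tsku knockout arrays (x axis) for each SLC25 gene, in log2 units, with the line of equal gaps. Slc25a24, Slc25a25 and Slc25a26 have knockout gaps above 1, with Slc25a10 next at 0.91, and Slc25a28 has the largest wild-type gap.

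The other carriers of nucleotides and cofactors were all above background on all 4 arrays. Slc25a42 imports coenzyme A and read 7.59 and 7.34 on knockout arrays, against 7.26 and 7.18 in wild type, a difference of 0.25 (-0.23 to 0.72) that ran from 0.13 to 0.37 without single arrays. Slc25a16, linked to coenzyme A supply, differed by 0.20, and Slc25a17, the peroxisomal carrier of coenzyme A and flavin nucleotides, by 0.16. In these 3 genes both knockout arrays were above both wild-type arrays. Slc25a36, a pyrimidine nucleotide carrier, was lower on both knockout arrays and differed by -0.24. Its relative Slc25a33 differed by 0.07, the folate and flavin carrier Slc25a32 by -0.04 and the NAD carrier Slc25a51 by 0.04, with overlapping groups in all of them.

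Carriers of di- and tricarboxylates link the citric acid cycle to the cytosol. Slc25a1 exports citrate, the source of cytosolic acetyl-CoA for fatty acid synthesis. It read 7.89 and 7.30 in the knockout and 7.13 and 7.18 in wild type, so both knockout arrays were higher, replicate 1 by the most. The log2 difference was 0.44 (-0.16 to 1.04), 0.15 without knockout replicate 1 and 0.73 without replicate 2. Slc25a10, the dicarboxylate carrier that exchanges malate and succinate for phosphate, read 2.23 and 1.32 on knockout arrays, against 0.61 and 1.19 in wild type. Its difference of 0.87 (-0.01 to 1.76) was the highest of the family, had an unadjusted p of 0.0514, and rests on a wild-type group with 1 of 2 arrays above background. Without single arrays it ran from 0.42 to 1.33. Slc25a11, the oxoglutarate carrier, read 7.08 and 7.21 in the knockout and 6.97 and 7.18 in wild type, with overlap and a difference of 0.07.

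Of the enzymes that make or use citrate, 5 of 6 measured had the higher mean in the knockout, against 52.6% of all genes. Their median log2 difference was 0.26. Me1, the malic enzyme that makes cytosolic NADPH, was the 1 of the 6 at an unadjusted p under 0.05, against 5.56% of all genes. It read 7.21 and 6.45 in the knockout and 6.04 and 5.94 in wild type, a difference of 0.84. Acly, which splits exported citrate, read 7.23 and 7.10 on knockout arrays, against 6.68 and 6.76 in wild type, a difference of 0.45. In both enzymes, as in Slc25a1, knockout replicate 1 was the highest of the 4 arrays. None of them passed after adjustment over all genes.

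Slc25a12, the aspartate/glutamate carrier of brain, heart and muscle and a part of the malate-aspartate shuttle, was the 1 member at an unadjusted p under 0.05. It read 3.37 and 3.64 on knockout arrays, against 3.91 and 4.10 in wild type. Both knockout arrays were below both wild-type arrays, with a log2 difference of -0.50 (SE 0.20, 95% interval -0.995 to -0.0041, unadjusted p = 0.0486 and adjusted p = 0.872 in limma). Without single arrays the difference ran from -0.63 to -0.36. Slc25a13, the form prominent in liver, read 0.68 and 1.02 in the knockout and 1.03 and 1.11 in wild type, close to background throughout, and differed by -0.22, or by -0.39 to -0.047 without single arrays. Of the 4 shuttle enzymes, 3 were lower in the knockout. Got2, the mitochondrial aspartate aminotransferase, read 6.24 and 6.73 on knockout arrays, against 7.10 and 6.86 in wild type, a difference of -0.50. Got1, its cytosolic partner, read 4.85 and 5.15 on knockout arrays, against 5.36 and 5.50 in wild type, a difference of -0.43. Neither stood at an unadjusted p under 0.05, and the malate dehydrogenase genes Mdh1 and Mdh2 differed by -0.05 and 0.25.

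Skeletal muscle markers were also lower in the knockout. The summed linear signal of the 18 markers was 218 and 81.1 on the knockout arrays, against 343 and 516 in wild type. In 15 of 18 the arrays did not overlap with the knockout lower, against 15.8% of all genes. Of the 18, 13 were above background on all 4 arrays, with none below it on every array. Both wild-type arrays were above both knockout arrays in muscle signal and in Slc25a12. Within wild type, replicate 2 had the higher muscle signal and the higher Slc25a12 value (4.10, against 3.91 in replicate 1). Within the knockout, replicate 1 had the higher muscle signal and the lower Slc25a12 value. The part of muscle RNA in the Slc25a12 difference was not tested.

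Carriers of other amino acids differed in both directions. Slc25a44, the branched-chain amino acid carrier through which brown fat mitochondria take up these fuels, read 5.29 and 5.37 on knockout arrays, against 4.90 and 5.03 in wild type. Both knockout arrays were higher, by 0.36 on the log2 scale (-0.09 to 0.81), and by 0.30 to 0.43 without single arrays. Of 8 genes of branched-chain amino acid breakdown, 4 were higher and 4 lower, with a median of -0.0043 and 0 at an unadjusted p under 0.05. Ppm1k, the phosphatase that activates the branched-chain ketoacid dehydrogenase, differed by -0.39. Slc25a38, which supplies glycine for haem synthesis, read 3.26 and 3.34 in the knockout and 2.92 and 2.88 in wild type. Its difference of 0.40 (-0.04 to 0.84) had an unadjusted p of 0.0678, and its gaps within a genotype, 0.07 and 0.04, were small beside it. Slc25a22, a glutamate carrier, read 5.71 and 5.51 on knockout arrays, against 5.27 and 5.24 in wild type, a difference of 0.35. The ornithine carrier Slc25a15 was lower on both knockout arrays and differed by -0.22. Slc25a18, a second glutamate carrier, was below background on both wild-type arrays and above it on 1 of 2 knockout arrays. No fold is given for Slc25a18, as knockout replicate 1 was also below its background. Slc25a29, a carrier of basic amino acids, was below background on both knockout arrays and above it on 1 wild-type array, and no fold is given for it.

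No fold is given for the 8 members above background on no array. Slc25a2 encodes an ornithine carrier, Slc25a21 an oxodicarboxylate carrier and Slc25a41 a short relative of the ATP-Mg carriers.

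**Figure D4:**
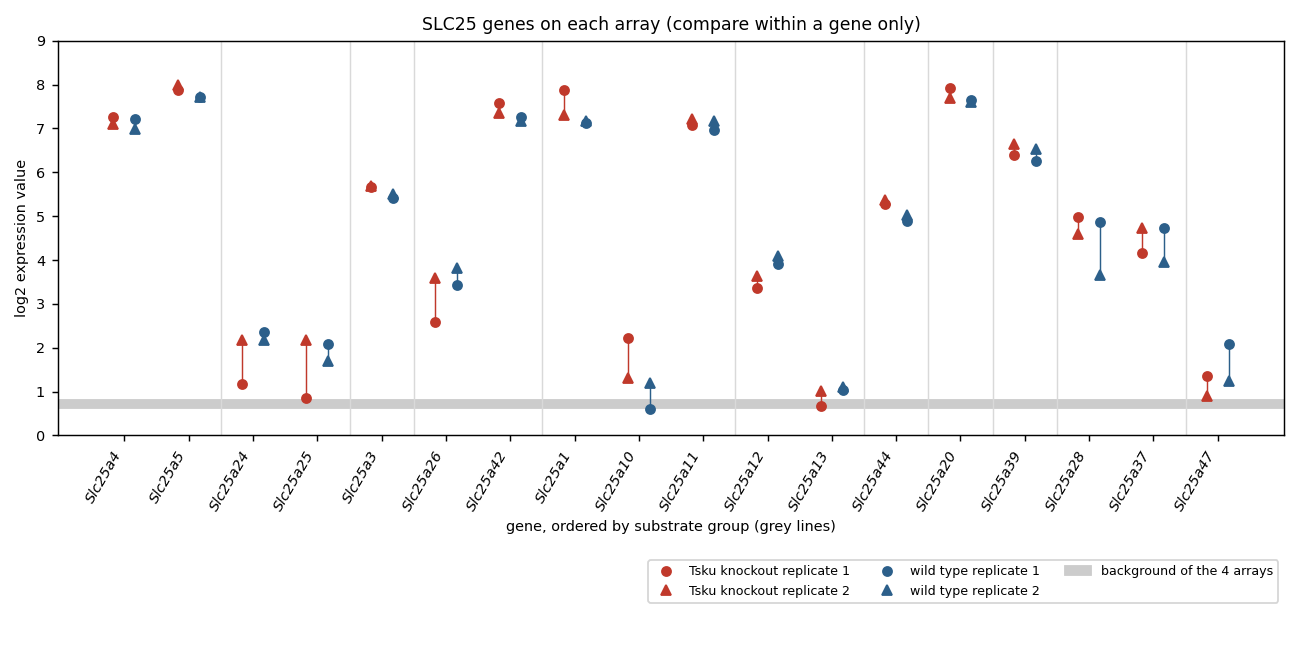
Log2 expression value (y axis) of 18 SLC25 genes on each array, with Tsku knockout arrays left of wild-type arrays, circles for replicate 1, triangles for replicate 2 and lines joining arrays of 1 genotype; the grey band is the range of background. Knockout arrays lie above both wild-type arrays in Slc25a1, Slc25a3, Slc25a5, Slc25a10, Slc25a20, Slc25a42 and Slc25a44, and below both in Slc25a12 and Slc25a13. Slc25a24, Slc25a25 and Slc25a26 show a low knockout replicate 1, and Slc25a28 a low wild-type replicate 2. Heights compare within a gene only.

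Slc25a20, the carnitine/acylcarnitine carrier that brings fatty acids into the matrix for oxidation, read 7.91 and 7.69 on knockout arrays, against 7.65 and 7.60 in wild type. Both knockout arrays were higher, by 0.18 (-0.29 to 0.64). Without knockout replicate 1 the difference was 0.065, and without replicate 2 it was 0.29. Of 6 measured genes of the carnitine shuttle, 3 were higher and 3 lower, with a median of 0.05 and 0 at an unadjusted p under 0.05. Crat, the carnitine acetyltransferase, differed by 0.30, Cpt2, the inner membrane palmitoyltransferase, by 0.23, and Crot, its peroxisomal relative, by 0.11.

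Iron enters mitochondria through the mitoferrins, and both varied more within wild type than between genotypes. Slc25a28, mitoferrin 2, read 4.99 and 4.60 on knockout arrays, against 4.88 and 3.67 in wild type. The low array was wild-type replicate 2, and the difference of 0.52 (-0.48 to 1.52) was -0.084 without it. Slc25a37, mitoferrin 1, the form that developing red cells rely on, read 4.16 and 4.73 in the knockout and 4.74 and 3.95 in wild type, a difference of 0.10 that turned to -0.29 without wild-type replicate 2 and -0.18 without knockout replicate 2. Of 12 erythroid markers 3 were measured and 0 of these were above background on all arrays, with Epb42 and Rhag above it on none and summed linear signals of 3.37 to 5.06 in the knockout and 3.31 to 3.57 in wild type. Among 9 measured genes of mitochondrial iron use 6 had the higher mean in the knockout, against 52.6% of all genes. Their median was 0.14. Abcb10, a transporter that stabilises mitoferrin 1, was the 1 of them at an unadjusted p under 0.05, against 5.56% of all genes. Abcb10 read 4.75 and 4.79 on knockout arrays, against 3.76 and 4.13 in wild type, a difference of 0.82. Alas1, the first enzyme of haem synthesis, differed by 0.20.

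The glutathione carrier Slc25a39 read 6.41 and 6.65 on knockout arrays, against 6.27 and 6.53 in wild type, a difference of 0.13, and its relative Slc25a40 differed by -0.16. Groups overlapped in both. Slc25a48, described as a choline carrier, differed by 0.10. The relatives of the uncoupling proteins, Slc25a14, Slc25a27 and Slc25a30, differed by 0.37, -0.23 and 0.12, with overlap in each. Of members without a settled substrate, Slc25a35 differed by 0.02, Slc25a46, an outer membrane protein of mitochondrial dynamics, by -0.13, and Slc25a45 by 0.38. Slc25a47, known from liver, read 1.35 and 0.90 in the knockout and 2.08 and 1.24 in wild type, a difference of -0.53 with overlapping groups. Without wild-type replicate 1 it was -0.11, and without wild-type replicate 2 it was -0.95. Of 11 liver markers 10 had the higher mean on knockout arrays, against 52.6% of all genes. Their median log2 difference was 0.54, with summed linear signals of 92.9 and 44.8 on knockout arrays, against 35.1 and 25.4 in wild type. Of these 11, 5 were above background on all arrays, and Fgg was above it on none. The part of liver RNA in the Slc25a47 values was not tested.

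Family members with other symbols differed by 0.00086 to 0.55. Ucp1, which lets protons leak to make heat, read 9.993 and 10.001 on knockout arrays, against 9.524 and 9.375 in wild type, a log2 difference of 0.55 at an unadjusted p of 0.0248. Ucp3 differed by 0.33, and Mtch1 and Mtch2, relatives in the outer membrane, by 0.17 and 0.00086. The import machinery for carriers, the small TIM chaperones, TIM22 and the TOM channel, had 9 of 14 measured genes higher in the knockout, a median of 0.04 and 0 genes at an unadjusted p under 0.05. Timm8b, a small TIM chaperone, differed by 0.46, Timm9 by 0.29 and the channel subunit Tomm40 by 0.23. Of 12 other mitochondrial transporters 9 were higher, against 52.6% of all genes, with a median of 0.15. Sfxn3, a serine transporter of the sideroflexin family, differed by 0.49 and Letm1, a cation exchanger, by 0.51. Both stood at an unadjusted p under 0.05, against 5.56% of all genes. Micu2, a regulator of the calcium uniporter, differed by -0.49. After adjustment over all genes 0 of these genes passed.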

How the data were processed

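Total RNA (400 ng) from each of 4 brown fat samples was biotin-labelled and put on an array of its own, as the labels' protocols describe. What the authors deposited is a single table of log2 values, normalized between arrays, for 41345 probe sets. The submitters' processing notes list limma, oligo and RMA but give neither roles nor versions, and the build is not given in the sources used here. Log base 2 is taken from RMA. An offset of unstated origin leaves levels below the usual RMA range. Differences between arrays do not depend on it if it is constant on the log scale, which was not tested. RMA pulls dim probe sets together, so differences of dim genes are understated.

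Of the probe sets, 23521 had 1 symbol and 1814 several. The highest-mean probe set per gene gave 22180 genes. Knockout minus wild type was fitted with lmFit and eBayes of limma 3.58.1 under R 4.3.3, two-sided and without a block, leaving 2 residual degrees of freedom. Adjusted p-values follow Benjamini and Hochberg over all genes. The fit was tested on simulated data. Alternatives covered a replicate block, probe set choice, scaling, a filter on dim genes, a variance trend and single arrays left out.

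The members, the gene lists and the substrate groups were chosen with earlier results of these data known. Per-array values are given for members with an unadjusted p under 0.05 or an absolute log2 difference of at least 0.5 that were above background on both arrays of a genotype, and for a panel of 15 chosen for function. Values for Slc25a22, Slc25a23 and Slc25a38 were added after they were seen. From each list the members named are at most 3, those with the lowest unadjusted p, and further ones were chosen after their values were seen.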

Additional observations from a re-analysis of the deposited data

How the results depend on the processing

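The count of members past an adjusted p of 0.05 in limma was 0 under all 11 alternatives, 4 of which leave out an array. The smallest adjusted p of a member ran from 0.382 (without wild-type replicate 1) to 0.939 (replicate block). With replicate number as a block, 1 member again stood at an unadjusted p under 0.05. The median was again 0.08, which the block cannot change with 1 array of each genotype per block. Same-numbered arrays deviated with a correlation of -0.07 across genes and crossed numbers with 0.07. With 2 arrays in each genotype these 2 values are opposites by construction. Whether the numbers pair the samples cannot be told from them. The count at an unadjusted p under 0.05, 1 in the report, was 0 with quantile normalization repeated, 0 with only genes above the median level (35 members kept), 2 with arrays centred on their medians and 2 with a mean-variance trend, and 0 to 8 without single arrays, the highest without knockout replicate 2, where 1621 of all 22180 genes (7.31%) did so, against 17.4% of members. The causes were not tested. The median difference of the family ran from -0.0044 to 0.10 without single arrays, turning sign without wild-type replicate 2. Among the 18 genes with per-array values under the naming rule, 12 kept their sign throughout and 0 of 126 values turned with all arrays kept. Of the alternatives with all arrays, only those of scaling could turn a sign. The replicate block, probe set choice, filter on dim genes and variance trend leave a member's difference as it is. Without single arrays Slc25a4 ran from -0.024 to 0.20, Slc25a11 from -0.034 to 0.18, Slc25a25 from -1.05 to 0.28, Slc25a28 from -0.084 to 1.12, Slc25a37 from -0.29 to 0.49 and Slc25a39 from -0.0060 to 0.26. Probe sets near background limit Slc25a10, Slc25a13, Slc25a14, Slc25a18, Slc25a25, Slc25a27, Slc25a29 and the 8 members above it on no array.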
